A study of Mus musculus with 7 samples.

Results

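The genes described here are 35 genes of the cell cycle and of DNA replication, listed by symbol, and followed in 7 tumours of the mouse melanoma line B16mhgp100. All 35 were among the 28233 genes of the deposited expression table, and all 35 were among the 14954 genes whose mean level reached 1 TPM and that were tested. TPM is the relative abundance of a transcript within a tumour, corrected for its length. The members were set into 16 genes of S phase and its start, and 19 genes of G2 and mitosis. The host mice were C57BL/6 and the tumours subcutaneous. Over-expression of Cr1l, the gene of the complement regulator Crry, defines the 4 tumours Cr1l 1 to Cr1l 4, and the 3 tumours Vec 5 to Vec 7 carried the vector. Mice of both groups received an antibody against PD-1 at 200 µg per dose, starting 10 days after inoculation, at 2 doses per week for 4 doses, and the tumours were harvested 1 day later. No tumour without the antibody was analysed here, and the sources used here do not say whether either line is a single clone.

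Between Cr1l and Vec tumours, the cell cycle genes as a body did not separate. In limma, none of the 35 passed an adjusted p of 0.05 as higher or lower in Cr1l tumours, where 0% of all tested genes were higher and 0.0134% lower. The over-expressed gene Cr1l did not pass in that fit either (limma adjusted p = 0.119). In the authors' DESeq2 comparison, Cdt1 and Gins2 passed as lower (DESeq2 adjusted p 0.00113 and 0.00209), where 2.27% of genes with an adjusted p were lower. For 33 of the 35 the values of the Cr1l tumours overlapped those of the Vec tumours. The 2 members whose groups did not overlap were Cdt1 and Gins2, both lower, which act when replication origins are loaded and fired. Of all tested genes 9.29% were higher and 6.67% lower without overlap. By this measure the members were thus no richer in such genes than all tested genes. Cdt1 averaged 33.9 ± 8.40 TPM in Cr1l tumours and 65.9 ± 6.08 TPM in Vec tumours, and Gins2 averaged 18.3 ± 1.36 TPM in Cr1l tumours and 28.4 ± 0.665 TPM in Vec tumours (SD, n = 4 and 3). Within the Cr1l group, Cr1l 3 and Cr1l 4 both lay below Cr1l 1 and Cr1l 2 for 33 of the 35.

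Before S phase, the origin recognition complex, Cdc6 and Cdt1 load the Mcm2-7 ring onto DNA, and the GINS complex and Cdc45 turn that ring into the active helicase of the replication fork. Cyclin E with Cdk2, and the E2F transcription factors that the retinoblastoma protein holds back, drive entry into S phase. After S phase, cyclins A and B with Cdk1, Polo and Aurora kinases and the spindle checkpoint carry the cell through mitosis, and Foxm1 with MuvB complexes switches on the genes they need. The summed level of these genes is widely used to gauge how many cells of a tissue are dividing. In bulk tumour RNA, fewer cells of a type and less RNA per cell cannot be told apart.

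The promoters of the 2 classes differed in the short sequences they carried. RefSeq promoter windows of build GRCm38.p6 (250 bases before to 50 bases after the start) were at hand for 28 of the 35 members. Foxm1, Aurkb, Kif20a, Ccna2, Ccne2, Gins2 and Mcm4 had none. Both strands were searched for E2F sites (TTTCCCGC or TTTGGCGC), for the cell cycle homology region or CHR (TTTGAA or TTCGAA) and for CCAAT. The S-phase members had 14 windows, since Mcm7 had 2, and the G2/M members 15. An E2F site stood in 6 of the 14 S-phase windows (42.9%) and in 0 of the 15 G2/M windows, against 1.56% of all 32851 windows. A CHR stood in 2 S-phase windows (14.3%) and in 12 G2/M windows (80%), against 19.2% of all windows. A CCAAT stood in 9 S-phase windows (64.3%) and 14 G2/M windows (93.3%), against 37.4% of all windows, and both a CHR and a CCAAT stood in 80% of the G2/M windows, against 7.52% of all windows. The windows of Cdt1, Mcm6, Cdc20 and Cdk1 are shown because Cdt1 is the member with the largest log2 fold change and the other three show the 2 layouts side by side. Capitals mark the E2F sites in Cdt1 and Mcm6, the CHR in Cdc20 and Cdk1, and CCAAT or its complement ATTGG in Mcm6, Cdc20 and Cdk1, and no match overlaps another.
Cdt1, chr8:122567765-122568064, plus strand: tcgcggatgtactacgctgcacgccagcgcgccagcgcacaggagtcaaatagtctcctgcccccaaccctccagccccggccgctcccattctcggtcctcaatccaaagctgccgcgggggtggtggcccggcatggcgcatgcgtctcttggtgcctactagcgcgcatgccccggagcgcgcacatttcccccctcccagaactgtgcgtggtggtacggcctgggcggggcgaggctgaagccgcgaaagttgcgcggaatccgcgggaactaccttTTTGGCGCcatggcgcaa
Mcm6, chr1:128359656-128359955, minus strand: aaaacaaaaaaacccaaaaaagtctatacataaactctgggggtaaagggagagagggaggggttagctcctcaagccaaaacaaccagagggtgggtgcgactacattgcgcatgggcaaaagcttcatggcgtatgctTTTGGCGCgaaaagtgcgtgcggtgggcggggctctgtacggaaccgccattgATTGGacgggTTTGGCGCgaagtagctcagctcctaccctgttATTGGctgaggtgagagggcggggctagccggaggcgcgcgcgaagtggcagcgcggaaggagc
Cdc20, chr4:118437294-118437593, minus strand: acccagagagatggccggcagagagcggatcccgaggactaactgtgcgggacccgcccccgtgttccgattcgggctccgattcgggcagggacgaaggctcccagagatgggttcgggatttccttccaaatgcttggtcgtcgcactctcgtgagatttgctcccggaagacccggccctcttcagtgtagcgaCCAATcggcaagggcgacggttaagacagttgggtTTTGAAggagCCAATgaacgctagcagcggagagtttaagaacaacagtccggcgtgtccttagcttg
Cdk1, chr10:69352863-69353162, minus strand: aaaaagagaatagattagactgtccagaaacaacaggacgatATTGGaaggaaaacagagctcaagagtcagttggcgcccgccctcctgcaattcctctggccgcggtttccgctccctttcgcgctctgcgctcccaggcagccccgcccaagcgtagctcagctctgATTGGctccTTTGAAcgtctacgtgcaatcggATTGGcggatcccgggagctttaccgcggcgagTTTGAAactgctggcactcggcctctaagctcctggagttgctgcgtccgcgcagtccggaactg
The Cdt1 window held 1 E2F site, shortly after the start, and no CHR or CCAAT. Mcm6 held 2 E2F sites and 2 CCAAT boxes, Cdc20 1 CHR and 2 CCAAT boxes, and Cdk1 2 CHR and 3 CCAAT boxes. Of the 46 windows of 37 other replication genes 19.6% held an E2F site and 19.6% a CHR, and of the 46 windows of 42 other mitotic genes 4.35% held an E2F site and 73.9% a CHR. A match is a description of the letters and does not show that a factor binds there.

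The labels and the makeup of the tumours were checked first. Cr1l itself had 76.4, 78.6, 77.9 and 83.6 TPM in Cr1l tumours and 52.4, 46.3 and 54.9 TPM in Vec tumours, a log2 fold change of 0.62 ± 0.115 (SE) with no overlap (two-sided exact permutation p = 0.0286, the smallest p that 35 splits of 7 tumours can give). Its limma adjusted p was 0.119, so the over-expressed gene itself did not pass the adjusted threshold of 0.05. The melanocyte marker Pmel had between 2950 and 7813 TPM in all 7 tumours, so the labelled tissue expressed its markers. Mean levels of melanocyte genes were lowest, and of macrophage and fibroblast genes highest, in Cr1l 3 and Cr1l 4. Of all TPM, globin transcripts took 0.0106% to 0.0417% in the 4 Cr1l tumours and Vec 5, 0.973% in Vec 7 and 4.14% in Vec 6, and keratinocyte and muscle markers were highest in Vec 6. Over all 14954 tested genes, limma with Benjamini-Hochberg adjustment at 0.05 called 0 higher and 2 lower in Cr1l tumours, and at an unadjusted p under 0.05 there were 1419 (9.49%) higher and 908 (6.07%) lower. Fold changes throughout are differences of log2(TPM + 1), Cr1l minus Vec, and their median over all tested genes was 0.05.

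Most S-phase members had lower mean levels in Cr1l tumours. Of the 16, 13 had a negative and 3 a positive fold change, with a median of -0.18, while 55.4% of all tested genes had a positive one. At an unadjusted p under 0.05, 3 of the 16 were lower in Cr1l tumours (Cdt1, Gins2 and Ccne1) and 0 were higher, against the 6.07% and 9.49% of all tested genes given above. In the authors' deposited table, a DESeq2 comparison, the same 2 genes, Cdt1 and Gins2, passed an adjusted p of 0.05 as lower and 0 of the 35 as higher, where 2.27% of the 18297 genes with an adjusted p were lower and 4.74% higher.

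**Figure D1:**
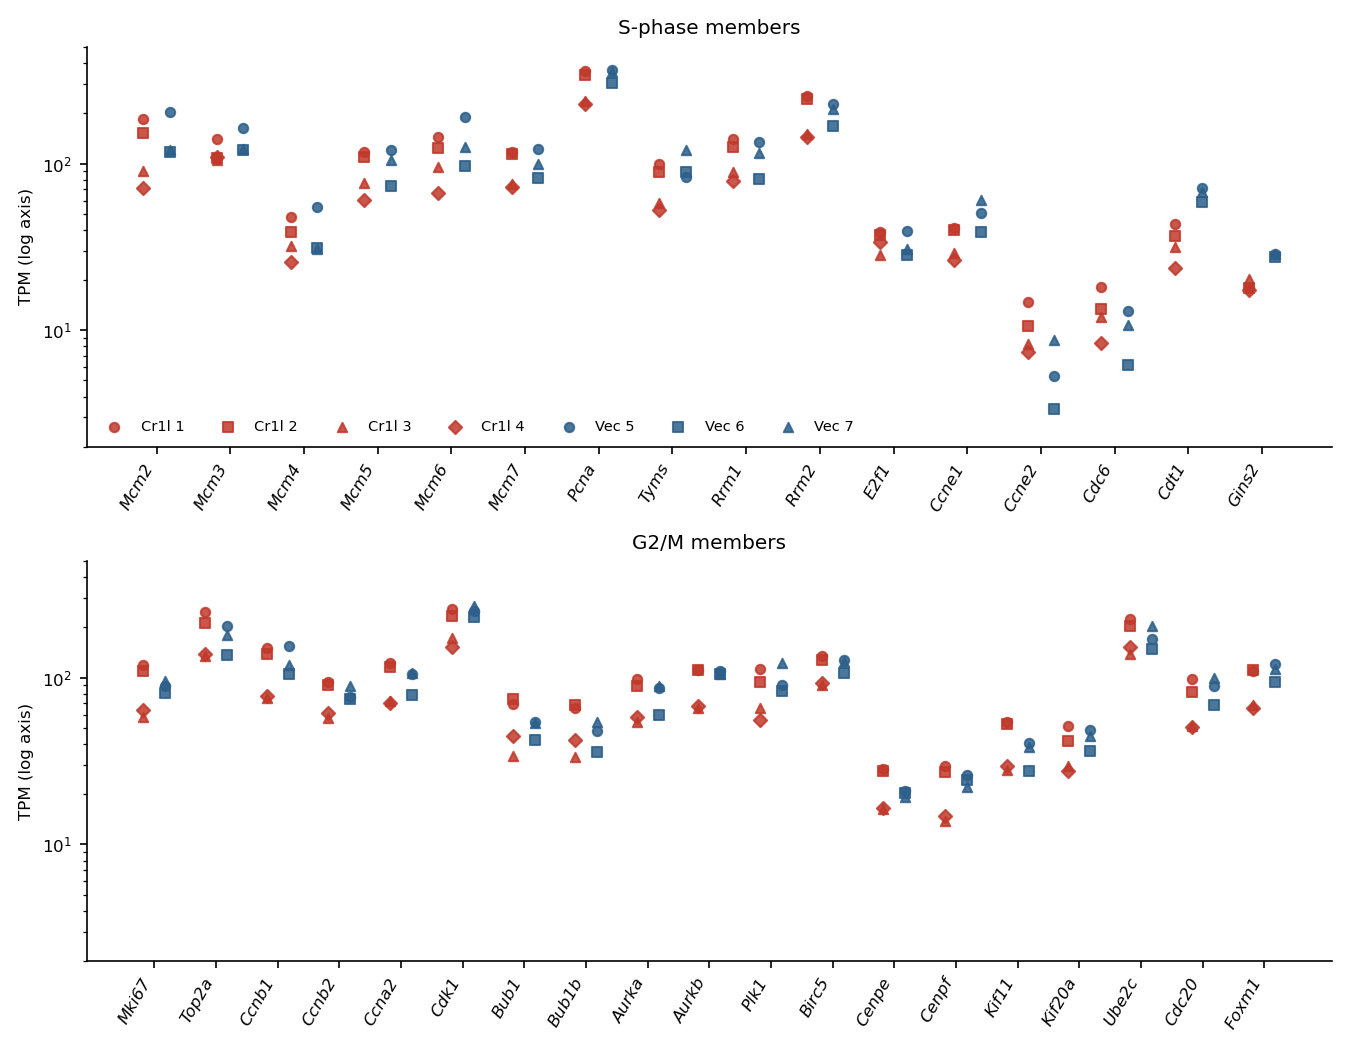
Level of each of the 35 members in each tumour, in TPM on a log axis. Red points are the 4 Cr1l tumours and blue points the 3 Vec tumours, and Cdt1 and Gins2 are the only members whose red points all lie below the blue ones.

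Cdt1 had the largest log2 fold change of the 35 members, in either direction. This loading factor of replication origins, which geminin blocks and which is destroyed once S phase begins, had 43.7, 36.7, 31.4 and 23.8 TPM in Cr1l tumours and 70.9, 59.2 and 67.7 TPM in Vec tumours. Every Cr1l tumour lay below every Vec tumour. The log2 fold change was -0.97 ± 0.207 (SE; limma p = 0.00167, adjusted p = 0.145 over all tested genes), and the authors' deposited table gave -1.02 with an adjusted p of 0.00113. Cdc6, the ATPase that works with Cdt1 at the same step, did not follow it. It had 18.1, 13.4, 12.0 and 8.37 TPM in Cr1l tumours and 13.1, 6.21 and 10.7 TPM in Vec tumours, with overlap and a log2 fold change of 0.35 ± 0.309 (SE; limma adjusted p = 0.581).

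The second member without overlap belongs to the next step. Gins2 encodes the Psf2 subunit of the GINS complex. It had 17.9, 17.8, 20.4 and 17.3 TPM in Cr1l tumours and 28.8, 27.6 and 28.7 TPM in Vec tumours. Both groups were tight, with a log2 fold change of -0.61 ± 0.127 (SE; limma p = 0.00152, adjusted p = 0.139), and -0.69 with an adjusted p of 0.00209 in the authors' deposited table. The other three subunits of the complex showed no such gap. Their log2 fold changes were -0.19 ± 0.240 for Gins1, 0.05 ± 0.243 for Gins3 and -0.14 ± 0.152 for Gins4 (SE; limma adjusted p 0.701, 0.931 and 0.658), and that of Cdc45 was 0.02 ± 0.235 (adjusted p = 0.981).

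The helicase ring itself overlapped between the groups for all its subunits. The fold changes of Mcm2 to Mcm7 ran from -0.36 for Mcm6 to -0.09 for Mcm4, and the limma adjusted p from 0.509 to 0.878. Mcm2 had 186, 152, 90.4 and 71.6 TPM in Cr1l tumours and 203, 118 and 121 TPM in Vec tumours. Mcm5 had 118, 110, 76.2 and 60.7 TPM in Cr1l tumours and 121, 72.9 and 105 TPM in Vec tumours. In both genes Cr1l 1 and Cr1l 2 lay among the Vec values while Cr1l 4 lay below all of them. The Mcm3, Mcm4 and Mcm7 fold changes were -0.22 ± 0.162, -0.09 ± 0.274 and -0.11 ± 0.229 (SE).

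Genes of the fork and of nucleotide supply overlapped between the groups as well. Pcna, the sliding clamp of the replicative polymerases, had 357, 338, 238 and 229 TPM in Cr1l tumours and 362, 303 and 353 TPM in Vec tumours (log2 fold change -0.25 ± 0.190, limma adjusted p = 0.53). Rrm2, the regulated subunit of ribonucleotide reductase, had 254, 243, 151 and 144 TPM in Cr1l tumours and 227, 169 and 211 TPM in Vec tumours (-0.07 ± 0.242, adjusted p = 0.903). Cr1l 1 and Cr1l 2 were the highest tumours for Rrm2, and Cr1l 3 and Cr1l 4 the lowest. Its partner Rrm1 differed by -0.04 ± 0.250, and thymidylate synthase, Tyms, by -0.42 ± 0.256 (limma adjusted p 0.954 and 0.438).

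The cyclin E genes went apart. Ccne1 had 41.2, 39.9, 28.9 and 26.3 TPM in Cr1l tumours and 50.5, 38.7 and 60.8 TPM in Vec tumours (log2 fold change -0.54 ± 0.222, limma adjusted p = 0.306). Ccne2 had 14.7, 10.6, 8.22 and 7.37 TPM in Cr1l tumours and 5.30, 3.37 and 8.72 TPM in Vec tumours (0.76 ± 0.329, limma adjusted p = 0.323). Each gene overlapped between the groups, Ccne1 through Vec 6 and Ccne2 through Vec 7. Their ratio within a tumour did not overlap. The log2 ratio of Ccne2 to Ccne1, each as TPM + 1, was -1.42, -1.82, -1.70 and -1.71 in Cr1l tumours and -3.03, -3.18 and -2.67 in Vec tumours, a difference of 1.30 between means of -1.66 ± 0.17 and -2.96 ± 0.26 (SD, n = 4 and 3). This ratio was chosen after the values were seen and carries no test. Ratios without overlap were found for 39 of the 120 pairs of S-phase members (32.5%). In the authors' deposited table the log2 fold changes were -0.61 for Ccne1 and 0.76 for Ccne2, with adjusted p of 0.112 and 0.225. E2f1, the activator E2F of this group, had 38.7, 37.1, 28.2 and 34.1 TPM in Cr1l tumours and 39.3, 28.4 and 30.9 TPM in Vec tumours, which overlapped (0.07 ± 0.170, limma adjusted p = 0.853).

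**Figure D2:**
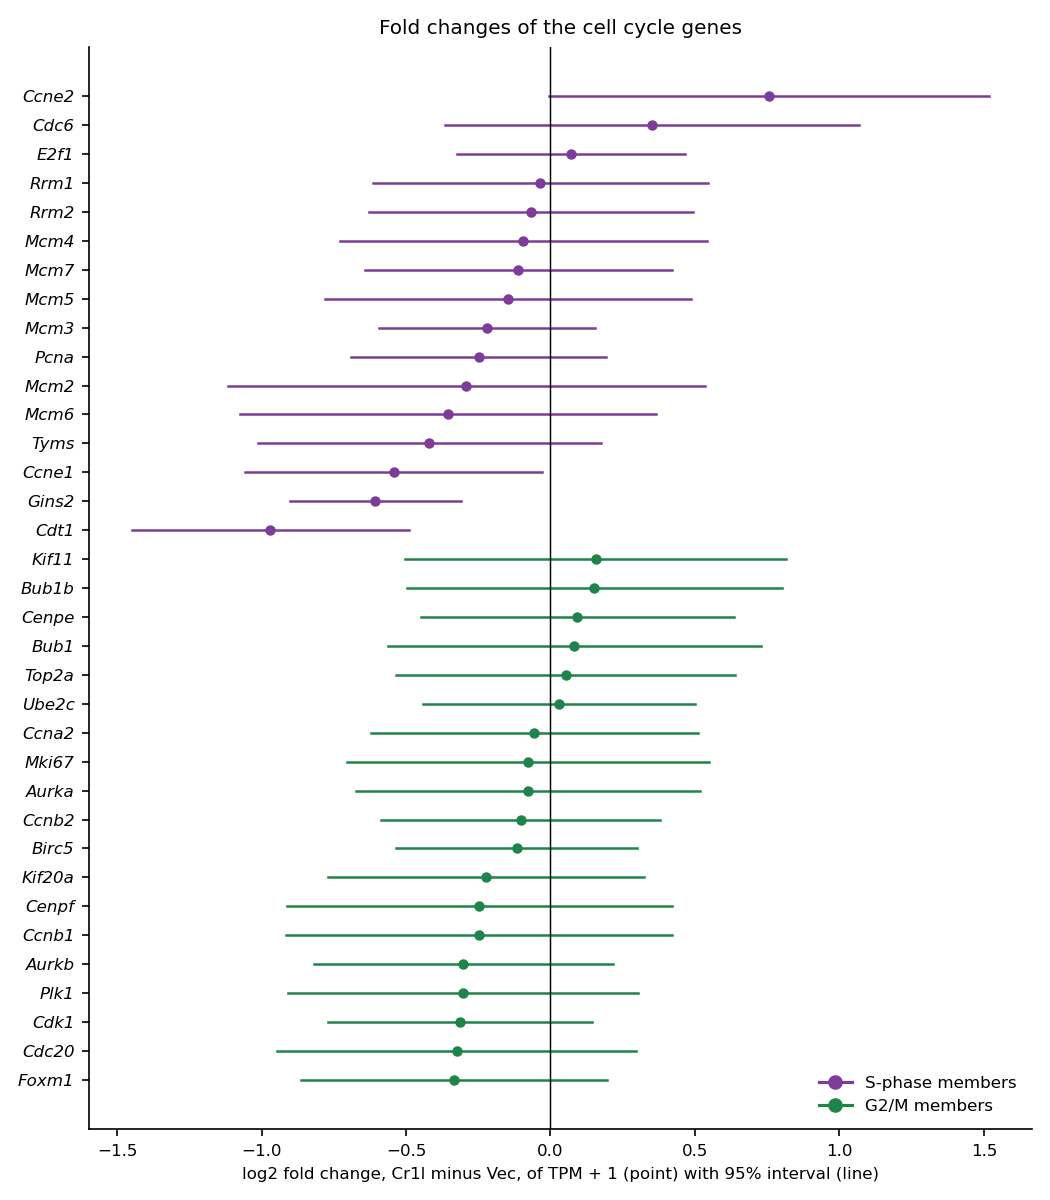
Log2 fold change of each member, Cr1l minus Vec, as a point with its 95% interval as a line, for S-phase members (purple) and G2/M members (green). Cdt1 and Gins2 lie at the low end of the S-phase members, Ccne2 at the high end, and the intervals of all 19 G2/M members include 0.

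The G2/M members lay closer together. Of the 19, 6 had a positive and 13 a negative fold change, with a median of -0.10 and a range of -0.34 to 0.16. None passed an unadjusted p of 0.05 in either direction (background 9.49% higher and 6.07% lower), none passed the adjusted threshold, and the smallest adjusted p was 0.448. Of the 19, 0 passed an adjusted p of 0.05 in the authors' deposited table, where the smallest value was 0.379. All 19 had overlapping groups.

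Among the regulators of mitotic entry, Cdk1, the kinase that drives it, had 259, 235, 173 and 154 TPM in Cr1l tumours and 251, 231 and 268 TPM in Vec tumours (log2 fold change -0.31 ± 0.197, limma adjusted p = 0.448). Its cyclin Ccnb1 had 150, 138, 75.1 and 77.6 TPM in Cr1l tumours and 154, 105 and 120 TPM in Vec tumours (-0.25 ± 0.288, adjusted p = 0.681). In both genes Cr1l 3 and Cr1l 4 lay under all other tumours, and Cr1l 1 and Cr1l 2 among the Vec values. Foxm1, the transcription factor of the mitotic programme, had 109, 111, 68.3 and 65.5 TPM in Cr1l tumours and 121, 93.6 and 113 TPM in Vec tumours (-0.34 ± 0.229, adjusted p = 0.483). Plk1, the Polo kinase, had 112, 93.5, 65.5 and 56.0 TPM in Cr1l tumours and 90.4, 83.6 and 123 TPM in Vec tumours (-0.30 ± 0.262, adjusted p = 0.572). The cyclins Ccnb2 and Ccna2 differed by -0.10 ± 0.208 and -0.06 ± 0.244 (SE; limma adjusted p 0.822 and 0.923).

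The proliferation markers had close means in the 2 groups. Mki67, which encodes the Ki-67 antigen, had 120, 110, 58.3 and 63.7 TPM in Cr1l tumours and 89.3, 80.6 and 95.5 TPM in Vec tumours, with means of 87.8 ± 31.2 and 88.5 ± 7.48 TPM (SD, n = 4 and 3; log2 fold change -0.08 ± 0.270, limma adjusted p = 0.9). All 3 Vec values lay in the gap between the upper and the lower pair of Cr1l tumours. Top2a, the topoisomerase that untangles chromosomes, had 248, 214, 135 and 139 TPM in Cr1l tumours and 204, 137 and 180 TPM in Vec tumours (0.05 ± 0.254, adjusted p = 0.932). The 95% interval of the difference ran from -0.70 to 0.55 for Mki67 and from -0.54 to 0.64 for Top2a, so differences of that size are not excluded by these 7 tumours.

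The spindle and chromosome genes had fold changes of both signs. Aurkb, the Aurora kinase of the chromosomal passenger complex, had 112, 112, 65.9 and 67.8 TPM in Cr1l tumours and 110, 105 and 106 TPM in Vec tumours (log2 fold change -0.30 ± 0.223, limma adjusted p = 0.514). Cdc20, the activator of the anaphase-promoting complex, had 98.2, 82.5, 51.4 and 50.4 TPM in Cr1l tumours and 89.5, 68.9 and 99.7 TPM in Vec tumours (-0.32 ± 0.269, adjusted p = 0.558). For both genes Cr1l 3 and Cr1l 4 stood below the other 5 tumours. The checkpoint kinases Bub1 and Bub1b differed by 0.08 ± 0.279 and 0.15 ± 0.280, and the passenger subunit Birc5 and the spindle kinase Aurka by -0.12 ± 0.180 and -0.08 ± 0.257. The motors Cenpe, Kif11 and Kif20a differed by 0.09 ± 0.234, 0.16 ± 0.285 and -0.22 ± 0.236, the kinetochore gene Cenpf by -0.25 ± 0.287, and Ube2c, the ubiquitin-conjugating enzyme of the anaphase-promoting complex, by 0.03 ± 0.203 (SE). The limma adjusted p of these 9 genes ran from 0.647 to 0.953.

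S phase and G2/M were set against each other within each tumour. The mean log2(TPM + 1) of the S-phase members was 6.26, 6.08, 5.69 and 5.50 in Cr1l tumours and 6.29, 5.78 and 6.13 in Vec tumours. That of the G2/M members was 6.62, 6.52, 5.80 and 5.85 in Cr1l tumours and 6.40, 6.11 and 6.41 in Vec tumours. The 2 means moved together from tumour to tumour. Their difference, S phase minus G2/M, was -0.36, -0.44, -0.11 and -0.34 in Cr1l tumours and -0.11, -0.33 and -0.29 in Vec tumours, and the groups overlapped (means -0.31 ± 0.146 and -0.24 ± 0.116, SD). As a share of all TPM, the S-phase members took 0.103% to 0.179% in Cr1l tumours and 0.134% to 0.188% in Vec tumours, and the G2/M members 0.127% to 0.220% in Cr1l tumours and 0.157% to 0.196% in Vec tumours.

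The lowest tumour for a given member most often came from the same pair. The lowest of the 7 values was in Cr1l 3 or Cr1l 4 for 32 of the 35 members, and both of these tumours lay below all other 5 for 14 of the 19 G2/M members and 8 of the 16 S-phase members. The highest value was in Cr1l 1 or Cr1l 2 for 14 of the 19 G2/M members and 4 of the 16 S-phase members. Among the Vec tumours, Vec 6 was the lowest for 31 of the 35 members. Vec 6 was also low over genes in general. Over 13553 genes outside the end of chromosome 8, the median deviation from the gene mean was 0.059, -0.159 and -0.018 in Vec 5, Vec 6 and Vec 7. In Cr1l 1 to Cr1l 4 it was 0.065, 0.047, -0.019 and -0.046. How often each tumour was lowest or highest over all tested genes was not counted.

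The melanocyte markers, read here as a measure of tumour purity, were also lowest in Cr1l 3 and Cr1l 4, followed by Vec 6. The mean log2(TPM + 1) of 15 melanocyte genes was 8.77, 8.62, 7.65 and 7.72 in Cr1l tumours and 8.68, 8.30 and 8.86 in Vec tumours (difference -0.42, two-sided exact permutation p = 0.314), and 14 of the 15 had a negative fold change. Their summed level ran from 9868 to 21790 TPM in Cr1l tumours and from 14360 to 22180 TPM in Vec tumours. The mean of 14 macrophage and monocyte genes was 4.53, 5.16, 7.50 and 7.32 in Cr1l tumours and 5.82, 4.72 and 4.07 in Vec tumours (difference 1.26, exact permutation p = 0.286), 12 of the 14 had a positive fold change, and their sum ran from 609 to 5943 TPM in Cr1l tumours and from 519 to 1623 TPM in Vec tumours. No marker of either list was at 0 in any tumour. The tumours lowest in cell cycle genes were thus those lowest in melanocyte and highest in macrophage genes, and the part of this in the members' levels was not tested beyond the fits that follow.

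**Figure D3:**
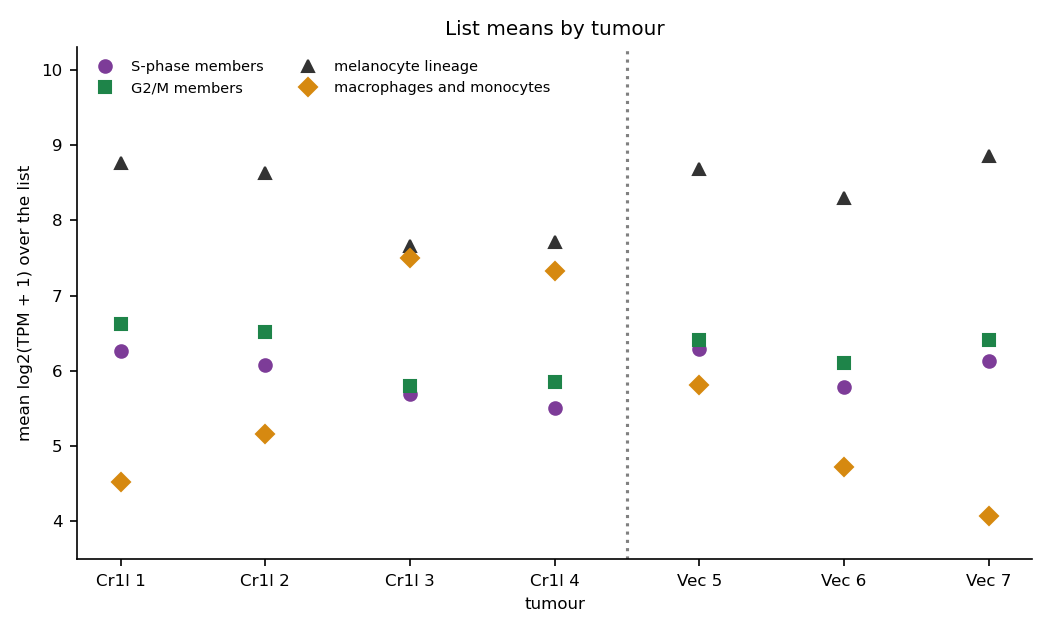
Mean log2(TPM + 1) of the S-phase members, the G2/M members, 15 melanocyte genes and 14 macrophage and monocyte genes in each tumour, Cr1l left of the dotted line and Vec right of it. Cr1l 3 and Cr1l 4 were lowest for the 2 member lists and the melanocyte genes, and highest for the macrophage genes.

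The member means were then set against the melanocyte mean in each tumour. The G2/M mean minus the melanocyte mean was -2.15, -2.10, -1.86 and -1.87 in Cr1l tumours and -2.28, -2.19 and -2.45 in Vec tumours. Every Cr1l tumour lay above every Vec tumour, by 0.31 on average, but the gap was narrow, -2.15 in Cr1l 1 against -2.19 in Vec 6. The melanocyte mean itself differed by -0.42, so a gene with equal levels in both groups would also rise in this subtraction. The G2/M mean alone differed by -0.11, and the median fold change over all tested genes was 0.05. The rise thus does not set these members apart, and how many other genes separate in this way was not counted. The melanocyte list holds Mc1r, whose fold change of -1.40 was the lowest of its 15 genes. No mean was made without Mc1r, so whether the groups separate without it was not tested. The same mean enters the fit below. The S-phase mean minus the melanocyte mean was -2.51, -2.55, -1.96 and -2.22 in Cr1l tumours and -2.39, -2.52 and -2.73 in Vec tumours, and overlapped, with an average difference of 0.24. Whether the 2 classes differ in this was not tested. With the melanocyte mean as a second term in the model for each gene, 16 of the 19 G2/M members and 9 of the 16 S-phase members had a positive fold change, with medians of 0.15 and 0.12, against 0.10 over all tested genes. In this fit 7 of the 19 G2/M members were higher and 0 lower at an unadjusted p under 0.05 (Mki67, Top2a, Ccna2, Bub1, Bub1b, Kif11 and Ube2c), and 2 of the 16 S-phase members were higher (Ccne2 and Cdc6) and 2 lower (Cdt1 and Gins2), where 13.0% of all tested genes were higher and 6.75% lower. The G2/M members rose and fell together across the tumours, so the 7 are not separate calls. With the macrophage mean as the second term instead, 0 of the 19 G2/M members were higher and 0 lower at the same unadjusted p. Of the 16 S-phase members 1 was then higher and 2 lower, where 1402 of the 14954 tested genes were higher and 889 lower. With the melanocyte mean, no member passed the adjusted threshold. The limma values nearest to it were Cdt1 at -0.75 ± 0.147 (SE; adjusted p = 0.0963), Gins2 at -0.63 ± 0.125 (0.0976), Ccne2 at 1.10 ± 0.244 (0.111) and Kif11 at 0.52 ± 0.119 (0.114). Mki67 had 0.27 ± 0.107 (adjusted p = 0.227) and Top2a 0.37 ± 0.116 (0.168).

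The sign of the medians therefore depended on which tumours and terms entered. Without Cr1l 3 and Cr1l 4, an alternative chosen after the values were seen, 11 of the 16 S-phase members and 18 of the 19 G2/M members had a positive fold change, with medians of 0.20 and 0.22, against 0.08 over all tested genes. With the macrophage mean as the second term the medians were 0.02 for the S-phase and 0.17 for the G2/M members. Leaving out Cr1l 3 alone turned the G2/M median to 0.02, and leaving out Vec 6, the tumour with the most globin, gave -0.31 for the S-phase and -0.20 for the G2/M members. Cdt1 and Gins2 kept their sign in all of these, at -0.70 and -0.64 without Cr1l 3 and Cr1l 4 and at -1.04 and -0.62 without Vec 6.

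Across the 7 tumours the members formed one tight group and a few strays. Pearson's r of log2(TPM + 1), given as a description over 7 tumours of both groups that share their makeup, had a median of 0.89 over the 171 pairs of G2/M members, with a lowest value of 0.59. The median was 0.69 over the 120 pairs of S-phase members, 0.75 over the 304 pairs of 1 member from each class, and 0.13 and 0.16 for pairs of S-phase and G2/M members with all other tested genes. Without Cr1l 3 and Cr1l 4 the medians were 0.73 within G2/M, 0.56 within S phase and 0.59 between them. Birc5 had the highest mean r with its own class, 0.92. Ccne2 and Gins2 had the lowest, 0.19 and 0.20, followed by E2f1, Cdc6 and Cdt1 with 0.49 to 0.52.

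**Figure D4:**
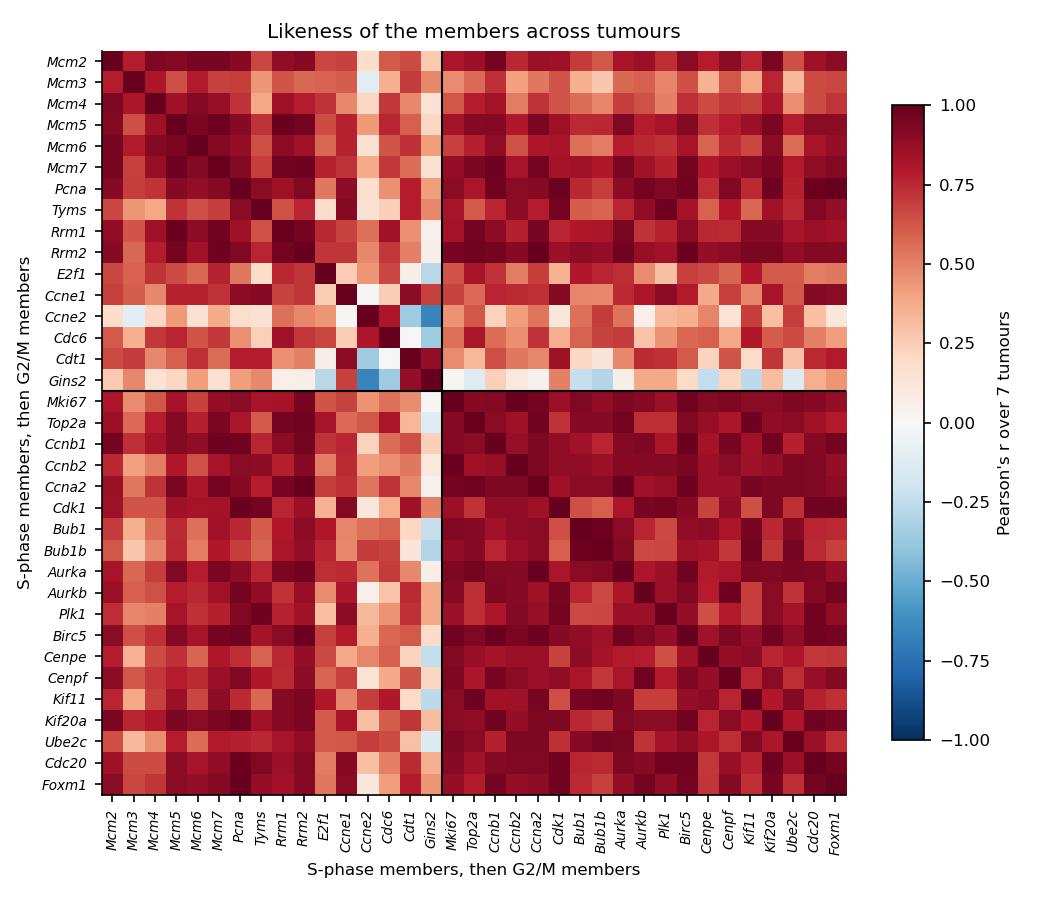
Pearson's r of log2(TPM + 1) over the 7 tumours for each pair of members, S-phase members first and G2/M members after the black lines. Red is a positive and blue a negative r, and Ccne2 and Gins2 are the pale and blue rows in a red field.

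Members were also compared by their ratios within a tumour. For each of the 595 pairs the log2 ratio of TPM + 1 was compared between the groups by overlap alone. Of all 595 pairs, 150 did not overlap (25.2%), and of the 120 pairs of S-phase members 39 did not (32.5%). The share over pairs of all tested genes was not computed, so these counts do not set any member apart from genes in general. Cdt1 and Gins2 also did not overlap by themselves, before any ratio was made. The ratio of Cdt1 to another member did not overlap for 32 of the 34 other members, that of Ccne2 for 24, that of Ccne1 for 19, that of Foxm1 for 17, those of Cdc6 and Kif11 for 14 each, that of E2f1 for 5 and that of Gins2 for 4. Among the 465 pairs without Cdt1, Gins2, Ccne1 and Ccne2, 75 did not overlap (16.1%). Cdt1 and Gins2 overlapped in their ratio to each other, and Mcm2 did not separate the groups in a ratio to any member.

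Cdt1 and Gins2 shared a place in the genome. Both are on mouse chromosome 8, where they stood 679th and 657th among the 745 tested genes that could be ordered by symbol with RefSeq GRCm38.p6, used for order alone because the authors worked with mm39. When 13848 tested genes were cut into 278 blocks of up to 50 neighbours, 6 blocks had a median log2 fold change under -0.20, and these were the last 6 of the 15 blocks of chromosome 8. Their medians ran from -0.44 to -0.23, and Cdt1 and Gins2 lay in the last block but 1. Without the 2 members this stretch held 293 genes, with a median of -0.31. The median was 0.12 for the 450 tested genes before it on chromosome 8. It was 0.06 for all other 13553 placed genes, which include those 450. The stretch was drawn from the medians of these same fold changes, so the shares that follow describe it and are no separate support. An unadjusted p under 0.05 with a lower level in Cr1l tumours was found for 28.3% of the 293 genes, 4.67% of the genes before them and 5.4% of the other placed genes. At an adjusted p under 0.05, 17% of the stretch without members and 2.02% of the other placed genes were lower in the authors' deposited table.

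The stretch was also read in single tumours. Its median deviation from the gene means, members included, minus that of all other placed genes, was -0.14, -0.20, -0.03 and -0.24 in Cr1l tumours and 0.10, 0.17 and 0.40 in Vec tumours, on the log2 scale, with no overlap. The stretch was drawn from these same fold changes, so this separation is no separate support. Before the stretch, the median deviation on chromosome 8, with nothing subtracted, was 0.058, 0.072, -0.019 and 0.013 in Cr1l tumours. It was -0.073, -0.279 and 0.168 in Vec tumours, so Vec 7 was the highest tumour there too and the Vec tumours were not alike. Mcm5, the only other member on chromosome 8, lies before the stretch, and the median over its 50 nearest tested neighbours was 0.28, against -0.25 for those of Gins2 and -0.22 for those of Cdt1. For the 33 members other than Cdt1 and Gins2 the neighbours' median ran from -0.09 (Ccna2) to 0.28. The differences of Cdt1 and Gins2 were larger than the median of the stretch around them, and Gins3 and E2f4, which also lie in it, differed by 0.05 and -0.12. The melanocyte gene Mc1r lies in it as well and differed by -1.40 (limma adjusted p = 0.222). The stretch was noticed after the values of Cdt1 and Gins2 had been seen, so its limits carry no test, and what sets it apart was not tested.

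**Figure D5:**
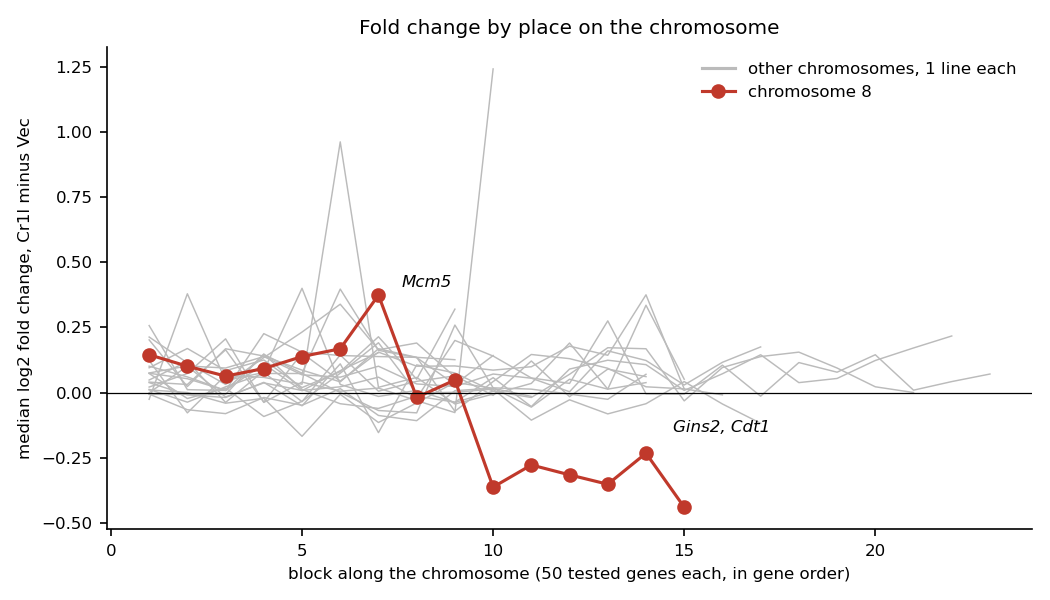
Median log2 fold change, Cr1l minus Vec, over blocks of up to 50 neighbouring tested genes, by order along the chromosome, for chromosome 8 (red) and every other chromosome (grey, 1 line each). The last 6 blocks of chromosome 8 lie between -0.44 and -0.23, below every grey block, and hold Gins2 and Cdt1, while Mcm5 lies in a block above 0.

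Other genes of the same pathways did not pass the adjusted threshold either. Of 45 other replication genes, 15 had a positive and 30 a negative fold change (median -0.12), and at an unadjusted p under 0.05, 2 were higher and 1 lower, against the 9.49% and 6.07% of all tested genes. Cdc7, the kinase that fires loaded origins, had 15.6, 14.5, 18.3 and 14.0 TPM in Cr1l tumours and 9.49, 7.92 and 11.7 TPM in Vec tumours without overlap (log2 fold change 0.64 ± 0.182, limma adjusted p = 0.225). Its activating partner Dbf4 differed by -0.44 ± 0.191 (adjusted p = 0.322), lower in Cr1l tumours and also without overlap. Chaf1b, a subunit of the histone chaperone at replication forks, differed by -0.65 ± 0.232 (0.27) and Orc4, of the origin recognition complex, by 0.35 ± 0.126 (0.272). Both also did not overlap. Of the 45, 2 were higher and 2 lower without overlap, against 9.29% and 6.67% of all tested genes.

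Of 50 other mitotic genes, 14 had a positive and 36 a negative fold change (median -0.11), and 1 was higher and 0 lower at an unadjusted p under 0.05. That gene was Hjurp, the chaperone that places the centromeric histone Cenpa, with 163, 194, 113 and 152 TPM in Cr1l tumours and 100, 78.4 and 90.8 TPM in Vec tumours (0.77 ± 0.194, limma adjusted p = 0.197). It was higher in all Cr1l tumours, Cr1l 3 and Cr1l 4 included, unlike any G2/M member. The next smallest p were those of Cks2, a small subunit bound by cyclin-dependent kinases (-0.38 ± 0.172, limma adjusted p = 0.337), and Ckap2, a spindle protein (-0.37 ± 0.184, 0.359), and both overlapped.

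Upstream of S phase, 24 genes of G1 cyclins, kinases, E2F and RB proteins had 10 positive and 14 negative fold changes (median -0.12), with 2 higher and 1 lower at an unadjusted p under 0.05. Myc, the growth-promoting transcription factor, had 132, 127, 79.6 and 88.1 TPM in Cr1l tumours and 49.2, 46.7 and 56.4 TPM in Vec tumours without overlap (1.03 ± 0.206, limma adjusted p = 0.127). Rb1, the retinoblastoma gene, differed by 0.73 ± 0.227 (0.238) and Ccnd1, cyclin D1, by -0.46 ± 0.185 (0.299), and neither overlapped. Of the 24, 3 were higher and 2 lower without overlap, against 9.29% and 6.67% of all tested genes. Of 23 inhibitors of cyclin-dependent kinases and p53 targets, 21 were tested, 9 with a positive and 12 with a negative fold change (median -0.13), and 0 were higher and 3 lower at an unadjusted p under 0.05. These were Gadd45a (-0.66 ± 0.177, limma adjusted p = 0.219), Phlda3 (-0.57 ± 0.162, 0.225), both induced by p53, and Pkmyt1 (-0.39 ± 0.140, 0.271), a kinase that restrains Cdk1.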

How the data were processed

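RNA of 7 tumours was analysed, 4 Cr1l and 3 Vec, numbered 1 to 7 in the labels, so that no number pairs tumours across the groups. Per the labels' protocols, the poly(A) libraries were non-directional, and reads from the 2 strands of a gene cannot be told apart. The submitters' processing notes name RSEM, DESeq2 and mm39, while versions, aligner and annotation were not given in the sources used here. Expression was deposited as log2(TPM + 1) made by the authors. TPM as deposited keeps no depth, so the read depth is unknown and no counting error is given. The authors' deposited table (DESeq2) gives, per the file headers, for each gene the mean signal as a normalized count, the log2 fold change, the Wald statistic (a score) and the p-value before and after adjustment. Among the members that mean count ran from 259 for Ccne2 to 12407 for Mki67. The header of the authors' table names no numerator. Cr1l was taken as the numerator because its own value was positive (0.57) and because of an r of 0.88 with the TPM fold changes across 14282 genes, and 27182 of its 28369 identifiers matched a symbol.

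Genes whose mean reached 1 TPM were tested with limma 3.58.1 in R 4.3.3 on log2(TPM + 1), with group as the term, moderated variances with a trend, and Benjamini-Hochberg adjustment over 14954 genes at 0.05. The log scale with a pseudocount of 1 understates changes of low genes. P-values are two-sided. They measure the spread between separately numbered tumours. The scripts were tested on simulated data. Alternatives were a pseudocount of 0.1, no filter and a filter at 5 TPM, median-of-ratios scaling, arrayWeights, no trend, the 2 marker means as covariates, leaving out each tumour, and leaving out Vec 6 and Vec 7, whose titles carry a further number. The members and the lists were chosen with earlier results of these data known. Values in every tumour were given for a fixed set of members and for the 3 of each class with the smallest p, and the other lists gave their 3 genes with the smallest p; Dbf4, the other GINS genes, Cdc45, E2f4 and Mc1r were named after their values were seen, as were Cr1l 3 and Cr1l 4 left out together and the stretch of chromosome 8. Antigen receptor repertoire measures were not used here.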

Additional observations from a re-analysis of the deposited data

How the results depend on the processing

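In all 16 alternatives set at the start and the 1 added after the values were seen, 0 members passed the adjusted threshold in either direction. Cdt1 ran from -1.10 to -0.70 (adjusted p 0.0963 to 0.736) and Gins2 from -0.65 to -0.58 (0.0976 to 0.726), each negative throughout. Ccne2 ran from 0.48 to 1.10 and Ccne1 from -0.71 to -0.27. The median of the S-phase members ran from -0.43 to 0.20 and that of the G2/M members from -0.22 to 0.22. The S-phase median was positive in 3 alternatives, the 2 marker covariates and the fit without Cr1l 3 and Cr1l 4 (0.20), and the G2/M median in 4, the same 3 and the fit without Cr1l 3, and the cause was not tested. Over all genes, the number past the adjusted threshold, higher and lower, was 0 and 2 as reported. It was 4 and 6 with median-of-ratios scaling and with the melanocyte covariate, 6 and 8 with arrayWeights (whose iteration did not fully converge), 6 and 7 without trend, 1 and 4 with the macrophage covariate, and 3 and 6 without Cr1l 3 and Cr1l 4. A pseudocount of 0.1 gave 4 higher, no filter 0 lower, a filter at 5 TPM 1 lower, and Vec 5 alone 1 higher. With Vec 5 alone the spread comes from the Cr1l tumours only, and Vec 5 is assumed to vary like them, so that fit is a weak check of the members. Leaving out 1 tumour gave 0 to 2 higher and 0 to 6 lower. The Cr1l difference ran from 0.55 to 0.67 when 1 tumour was left out, was 0.58 against Vec 5 alone and 0.59 without Cr1l 3 and Cr1l 4, and in these fits too few splits remain for an exact p under 0.05. No paired analysis was possible because the tumour numbers are not shared between the groups. The read depth of each tumour is unknown, and 7 tumours limit the precision.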
